A study of Mus musculus with 6 samples.

Results

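Multipotent progenitors (MPP) were compared with long-term haematopoietic stem cells (LT-HSC) of Idh1 knock-in mice, the whole span of early differentiation that was sorted from this genotype. The members were the autosomal cytosine positions, each a chromosome, base and strand, with at least 10 reads in both libraries. They numbered 757524 of the 1325626 autosomal positions found in any of the 6 libraries of the series, and 31528 windows of 1 kb held at least 5 of them. The KI LT-HSC library held 839283 such positions and the KI MPP library 1050141.

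DNA methylation was read by enhanced reduced representation bisulfite sequencing (eRRBS), in which CpG-rich restriction fragments are treated so that unmethylated cytosine reads as T. Marrow of 6 male C57BL/6 mice aged 7 to 10 months was pooled per group, and each of the 6 combinations of genotype and sort was 1 library. KI mice had the genotype IDH1+/lsl VavCre+, in which Cre recombinase under the blood-cell promoter Vav switches on a knock-in allele. Control littermates were IDH1+/+ VavCre+, so they too carried Cre. The labels do not name the change in the allele. LT-HSC were sorted as Lin- Sca+ Kit+ CD150+ CD48-, short-term stem cells (ST-HSC) as Lin- Sca+ Kit+ CD150+ CD48+, and MPP as Lin- Sca+ Kit+ CD150-. Each side was 1 pooled library with no replicate, so every test below compares 2 libraries, not 2 conditions, and its intervals cover counting error only. Both libraries were sequenced in different lanes, per the deposited names, and lane and cell type cannot be told apart.

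Stem cells in the marrow pass from a long-term self-renewing state through short-term stem cells to multipotent progenitors, which no longer renew for long. DNA methyltransferases add methyl groups to CpG cytosines, and TET enzymes oxidise them with 2-oxoglutarate, the metabolite that IDH1 makes. IDH1 mutants of leukaemia turn 2-oxoglutarate into 2-hydroxyglutarate, which inhibits TET enzymes.

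Of the promoters with the largest change, 5 are shown, because all or much of what was measured at their starts lay in the printed bases. Each runs 5′ to 3′ from 250 bases before to 50 after the start (RefSeq, GRCm38.p6, the build mm10), with the CpGs measured in both libraries in capitals.

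Arhgef18, chr8:3392758-3393057, plus strand: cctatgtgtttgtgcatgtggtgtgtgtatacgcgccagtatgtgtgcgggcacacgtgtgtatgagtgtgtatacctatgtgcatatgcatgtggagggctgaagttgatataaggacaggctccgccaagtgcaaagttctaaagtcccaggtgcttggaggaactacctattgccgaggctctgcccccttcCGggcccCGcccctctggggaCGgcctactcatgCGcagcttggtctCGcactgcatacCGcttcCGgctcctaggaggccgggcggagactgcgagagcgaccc
Lhcgr, chr17:88791965-88792264, minus strand: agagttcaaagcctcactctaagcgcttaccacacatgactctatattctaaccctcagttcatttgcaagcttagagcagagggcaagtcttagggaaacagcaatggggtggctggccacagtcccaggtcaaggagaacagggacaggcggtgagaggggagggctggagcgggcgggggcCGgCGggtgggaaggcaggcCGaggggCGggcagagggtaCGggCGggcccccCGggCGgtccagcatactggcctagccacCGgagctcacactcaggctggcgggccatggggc
Tubb4a, chr17:57087551-57087850, minus strand: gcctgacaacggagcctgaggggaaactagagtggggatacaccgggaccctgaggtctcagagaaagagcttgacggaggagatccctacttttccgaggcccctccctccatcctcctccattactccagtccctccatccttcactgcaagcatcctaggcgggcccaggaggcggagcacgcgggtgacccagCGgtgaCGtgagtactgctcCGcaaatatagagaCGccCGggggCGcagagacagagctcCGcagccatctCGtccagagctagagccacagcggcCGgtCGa
Sp8, chr12:118846983-118847282, plus strand: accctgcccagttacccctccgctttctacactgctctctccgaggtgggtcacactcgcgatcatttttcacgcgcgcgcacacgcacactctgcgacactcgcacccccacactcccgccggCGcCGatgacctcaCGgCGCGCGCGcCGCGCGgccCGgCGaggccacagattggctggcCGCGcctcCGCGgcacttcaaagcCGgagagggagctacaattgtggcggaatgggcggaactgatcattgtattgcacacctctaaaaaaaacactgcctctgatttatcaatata
Igf2r, chr17:12769657-12769956, minus strand: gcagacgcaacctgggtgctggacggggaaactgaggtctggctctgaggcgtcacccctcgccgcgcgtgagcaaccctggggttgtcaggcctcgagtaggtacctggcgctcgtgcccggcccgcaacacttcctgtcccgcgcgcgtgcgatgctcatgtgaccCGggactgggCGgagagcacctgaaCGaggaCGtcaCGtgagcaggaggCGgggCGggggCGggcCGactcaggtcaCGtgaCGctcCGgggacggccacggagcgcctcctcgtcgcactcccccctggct

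Methylation was slightly higher on average in KI MPP than in KI LT-HSC, and strongly higher at a small number of places led by the Hoxa cluster. The mean of position levels was 23.8% in LT-HSC and 25.2% in MPP, 1.41 percentage points higher. The mean was higher in MPP on 19 of 19 autosomes, by 1.15 points on chromosome 3 to 1.64 points on chromosome 7. Of 31528 windows, 21515 were higher in MPP by any amount, 9685 were lower and 328 were equal. Positions at exactly 0% made up 52.4% of positions in LT-HSC and 47.0% in MPP. Positions at 20 to 80% made up 7.80% and 9.95%, and positions over 80% made up 19.3% and 19.7%. The share at 20 to 80% grew more than the share over 80%.

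Weighted by reads, the levels were 18.04% and 22.96%, a difference of 4.92 points, beside 1.41 points unweighted. The 2 libraries also differed in which positions they reached. LT-HSC alone covered 81759 positions with a mean of 36.5%, and MPP alone covered 292617 positions with a mean of 60.3%. All positions of each library averaged 25% and 35%, so a mean over unmatched positions would have shown 9.95 points. Of the 6 libraries of the series, KI LT-HSC had the fewest positions, the lowest such mean and the highest median coverage, 45 reads. The means of the other libraries ran from 31.9% in Control LT-HSC to 35.0% in KI MPP. What part this had in the differences below was not tested. Median coverage at the common positions was 50 reads in LT-HSC and 43 in MPP, and the part of this unequal depth in the shift was not tested.

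Single positions were called where the two-sided Fisher exact p, adjusted after Benjamini and Hochberg, was below 0.01 and the levels lay 25 points or more apart. MPP was higher at 7267 positions, 0.959% of those tested, and lower at 2499, 0.33%, which is 1.29% in either direction. A different measure of error came from CpGs read on both strands, since the strands of a CpG are read from different molecules of 1 library. The same test between the strands within a library called 1.69% of 108104 such CpGs in LT-HSC and 1.19% in MPP. Between MPP and LT-HSC it called 1.12% on the forward and 1.09% on the reverse strand, no more than within a library. Both strands were called together at 139 CpGs higher and 13 lower in MPP, while 9 and 4 were called in opposite directions. Single positions were for this reason not named, and windows were used.

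For windows the same test ran on summed reads, again with an adjusted p below 0.01, and the means of position levels had to lie 10 points or more apart. In MPP, 1144 windows were higher (3.63% of those tested) and 286 were lower (0.907%), together 4.54%. A window less than 10 points from the bottom of the scale in LT-HSC cannot be called lower. A window that near the top cannot be called higher. Of all windows, 20034 stood under 20% in LT-HSC and 9030 over 80%, so more windows had room to rise than to fall. The part of this in the counts was not tested. Across windows with CpGs read on both strands, the strand test within a library called 1.42% of 7544 in LT-HSC and 1.17% in MPP. MPP against LT-HSC called 1.96% on the forward strand, 109 higher and 39 lower, and 1.83% on the reverse strand, 112 higher and 26 lower. Between cell types 148 and 138 windows were called on a strand, beside 107 and 88 between the strands of a library, so the excess was modest. Of 582 windows called higher with at least 3 positions on each strand, 542 were higher on both strands. Of 107 such windows called lower, 94 were lower on both.

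Of the windows called higher, 596 stood at 20 to 80% in LT-HSC, 428 under 20% and 120 over 80%, and of those called lower, 157 of 286 stood over 80%. The median called higher window went from 31.5% in LT-HSC to 57.1% in MPP, and 259 of them rose by at least 25 points and 62 by at least 40. The median called lower window went from 84.4% to 65.3%, with 44 falling by at least 25 points and 4 by at least 40. Where no position counted for more than 10 reads, 266 windows were still higher (0.844%) and 24 lower (0.0761%), together 0.92%. The sources used here do not say whether copies of 1 molecule were removed from the reads.

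**Figure D1:**
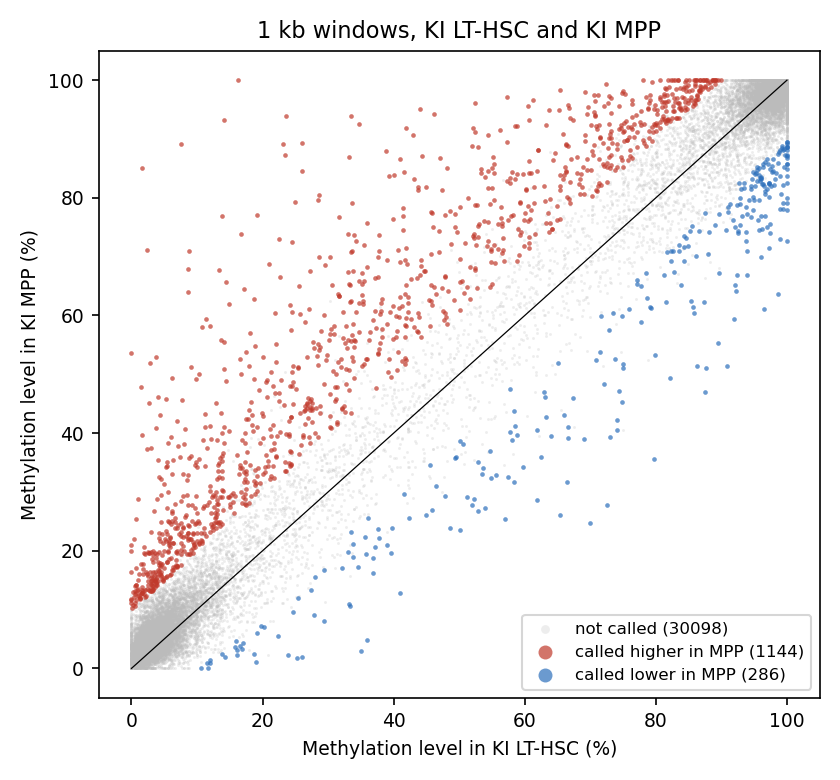
Methylation level of 31528 windows of 1 kb in KI LT-HSC (x axis, percent) and KI MPP (y axis, percent), each point a window and the line equality. The 1144 windows called higher in MPP (red) lie above the line at all levels of LT-HSC, and the 286 called lower (blue) lie below it, mostly at high LT-HSC levels.

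The largest rise over the genome was at Hoxa5, a homeobox transcription factor gene of the Hoxa cluster, which sets position in the embryo and is active in stem cells. The window chr6:52204001-52205000 (mm10) spans the Hoxa5 start and held 46 positions, most of them inside the gene. It stood at 23.5% in KI LT-HSC and 87.3% in KI MPP. Of the 46 positions, 45 were higher in MPP, and 39 were called on their own. Reads gave 20.8% of 1464 in LT-HSC (95% Wilson interval 18.8 to 22.9) and 89.8% of 2183 in MPP (88.5 to 91.0). The forward strand rose by 53.4 points and the reverse strand by 75.3. ST-HSC, which took no part in the call, stood at 81.7%, near MPP. In Control the same positions went from 20.4% to 72.2%. Of 29 CpGs in the Hoxa5 promoter sequence, 2 were measured, and their mean in KI went from 85% to 99.1%. Further upstream, the KI positions at −301 and −342 bases went from 54.5% to 98.9% and from 6.25% to 72.4%. The lowest KI LT-HSC levels lay inside the gene, where most of the rise was measured.

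**Figure D2:**
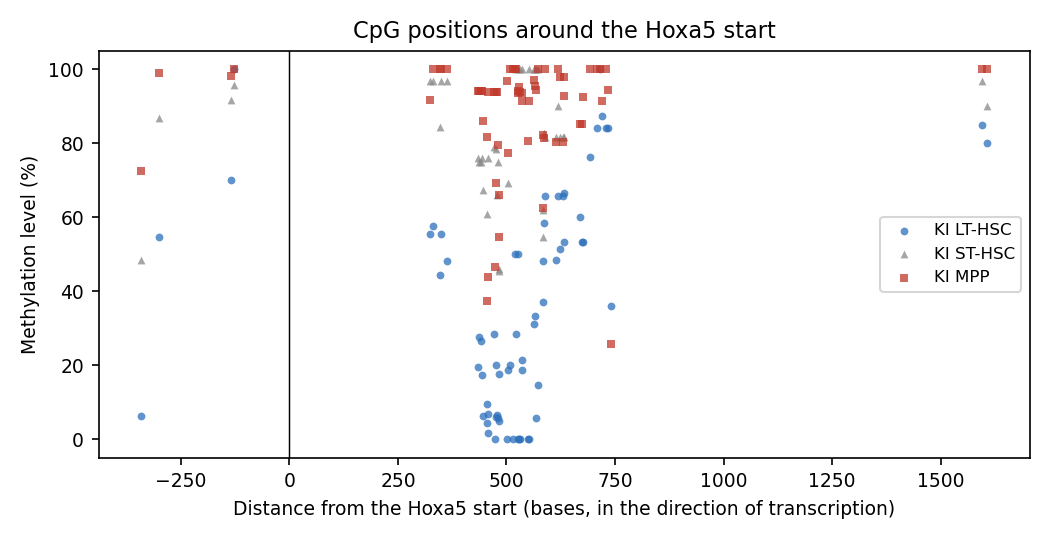
Methylation level (y axis, percent) of each CpG position by its distance from the Hoxa5 start in the direction of transcription (x axis, bases), for the KI LT-HSC, ST-HSC and MPP libraries. MPP and ST-HSC points lie near the top at most distances, and LT-HSC points spread from 0 to 100% with the lowest ones inside the gene.

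The rise covered the first genes of the cluster and stopped before Hoxa7. Of 14 measured windows before the Hoxa7 gene, 10 were called higher, with a median difference of 13.9 points, and of 29 from Hoxa7 on, 0 were called, with a median of 1.20 points. The split at Hoxa7 was chosen after the values were seen. Beside Hoxa5, the window in Hoxa3 at chr6:52175001-52176000 rose from 39.3% to 83.6% with ST-HSC at 69.2%, and all 43 positions were higher. The start of 5730596B20Rik, a transcript of the cluster, rose from 41.6% to 84.4% with ST-HSC at 92.2%. The Hoxa6 start rose from 18.5% to 34.7% and the Hoxa2 start from 12.3% to 23.3%. In contrast the Hoxa10 start stood at 2.01% and 1.69%, and the Hoxa13 start at 3.05% and 4.03%. In Control, 12 of the first windows were measured and 5 were called higher, and of 21 later ones 0 were higher and 1 was lower.

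Over all 39 Hox cluster genes of the list, 14 had a measured start, from 1000 bases before to 500 after it. Of these, 4 were called higher (Hoxa2, Hoxa5, Hoxa6 and Hoxd12) and 0 lower, with a median difference of 4.37 points. Over all 10821 measured gene starts, which leave out chromosome 18, 142 were higher (1.31%) and 26 lower (0.24%), with a median of 1.18 points. The Hoxd12 start rose from 9.74% to 19.99%. The starts of Hoxa2 and Hoxd12 were not called with at most 10 reads per position (adjusted Fisher p = 0.177 and 0.059). Hoxa2 was 4.62 points higher on the forward strand and Hoxd12 4.52 on the reverse strand, neither called. In windows within these genes or 1000 bases of them, 19 of 109 were higher (17.4%) and 2 lower (1.83%), beside 3.63% and 0.907% over all windows. A window near Hoxb2 rose from 6.88% to 42.1%, with 35.3 points between the libraries and ST-HSC at 15.3%. Falls were seen in Hoxb1, from 52.0% to 27.9%, and near Hoxc6, from 40.9% to 12.9% on 73 LT-HSC reads. With at most 10 reads per position, 13 Hox windows were higher and 0 lower, beside 0.844% and 0.0761% of all windows.

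In genes that keep stem cells and found the blood lineages, 1 kb windows were called higher inside genes or overlapping a start region. Of the list of HSC regulators and surface genes, 20 starts were measured and 0 called, with a median difference of 1.23 points. In their windows, however, 15 of 129 were higher and 0 lower, in 10 genes, which is 11.6% beside 3.63% over all windows. Endothelial and stromal genes had a like share, 11.4%. With at most 10 reads per position 6 of the 129 were higher, beside 0.844% of all windows under that cap. Reading windows in the lists was chosen after seeing the data. The windows had a median difference of 1.55 points, beside 1.04 over all windows.

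Prdm16, a chromatin regulator needed for stem cell maintenance, rose in 2 windows. The first went from 8.59% in LT-HSC through 35.8% in ST-HSC to 64.0% in MPP, on 318 and 194 reads, and from 10.3% to 51.9% in Control. Gfi1, a zinc-finger repressor that restrains stem cell cycling, rose from 34.0% through 47.3% to 73.7% over 38 positions. In Control the Gfi1 window went from 6.66% to 53.5%. Gfi1b, its relative in red cells and platelets, rose from 37.7% to 71.0%. Gata2, a transcription factor of stem cells, rose in 3 windows inside the gene, of which the one with most positions went from 9.99% to 34.2%. Cbfa2t3, a corepressor also called ETO2, rose in 3 windows too, the highest from 24.5% to 72.5%. Robo4, a receptor used by stem cells for their niche, rose from 35.3% to 62.0%, and Hmga2, a chromatin protein of fetal stem cells, from 13% to 32.1%. The order LT-HSC, ST-HSC, MPP held in each of these windows.

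Erythroid and megakaryocyte genes had 5 of 49 windows higher (10.2%, beside 3.63% over all windows) and 0 lower. Zfpm1, which encodes the GATA cofactor FOG1, supplied 3 of them, and the first went from 22.02% through 39.3% to 55.2%. Another Zfpm1 window stood at 0.412% in LT-HSC and 22.02% in MPP. Gfi1b counted in this list too. Ermap, an erythroid membrane protein, rose from 79.5% to 99.7%. At their starts, 7 were measured and 0 called, with a median of 2.28 points. Genes of the MPP list, such as Flt3, had 0 of 24 windows called.

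For the sorting markers, the starts of Kit, Cd34 and Flt3 were measured and not called. Kit, the stem cell factor receptor, stood at 4.11% in LT-HSC and 2.15% in MPP. Cd34, a sialomucin of progenitors, stood at 1.00% and 5.14%, a difference of 4.13 points under the 10 set. Flt3, a receptor that marks progenitors, stood at 4.92% and 8.09%. Starts of Slamf1, Cd48 and Ly6a did not hold the 5 positions set. Methylation at these starts is no expression level, so the sorts were not checked by it.

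Markers of other cells were read the same way. Among endothelial and stromal genes, 0 of 6 starts were called. Of their windows, 4 of 35 were higher and 1 lower (11.4% and 2.86%, beside 3.63% and 0.907% over all windows). Kdr, the VEGF receptor of endothelium, had the largest of them, from 33.6% through 52.0% to 79.1% over 8 positions, on 693 and 388 reads. All 8 Kdr positions were called on their own, and Control went from 27.5% to 74.8%. Lymphoid genes had 0 of 9 starts called and 3 windows of 59 higher and 1 lower (5.08% and 1.69%). Pax5, a B cell factor, rose from 4.39% to 17.9%, while Control went from 7.80% to 6.24%. Gata3 and Lck also rose, and Ebf1 fell from 83.5% to 71.0%. With at most 10 reads per position 0 lymphoid windows were called. Myeloid genes had 0 of 6 starts called and 2 of 28 windows higher and 2 lower (7.14% each). Irf8, a monocyte factor, fell from 100% to 86.8% over 5 positions, and Ltf fell from 96.0% to 83.4%. Csf2ra rose from 40.7% to 53.9%, and Gfi1, named above, counted in this list too. With at most 10 reads per position 1 myeloid window was higher and 0 lower, beside 0.844% and 0.0761% of all windows. Whether other cells in a sort had a part in these values was not tested.

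The enzymes of the pathway itself were read at their starts. Of 21 measured starts of methylation and IDH genes, 0 were called, beside 1.31% higher and 0.24% lower over all starts. At those shares a list this short can hold 0 calls without differing from the rest. The median difference of the list was 1.16 points, beside 1.18 over all starts. The Idh1 start stood at 1.59% in LT-HSC and 1.96% in MPP over 15 positions. Idh2, the mitochondrial enzyme, stood at 3.63% and 3.45%. The starts of the oxidising enzymes Tet1, Tet2 and Tet3 stood at 2.85%, 1.99% and 4.21% in LT-HSC and at 3.07%, 2.70% and 7.39% in MPP. The methyltransferases Dnmt1, Dnmt3a and Dnmt3b stood at 2.55%, 1.67% and 1.61% in LT-HSC and at 4.64%, 2.41% and 2.56% in MPP. In the windows of this list, 1 of 82 was higher and 1 lower (1.22% each), beside 3.63% and 0.907% over all windows. Mbd2, a methyl-CpG reader, rose from 2.88% to 16.5%, and Kdm2b, a histone demethylase, fell from 16.1% to 2.22%. Atm, the DNA damage kinase, stood at 1.54% and 3.34%, and Meis1, a Hox cofactor, at 1.72% and 2.99%. DNA damage response genes had 0 of 20 starts called. Of their windows, 3 of 50 were higher (6%, beside 3.63% over all windows) and 0 lower. Brca2 rose from 85.8% to 96.1%, Fanca from 73.3% to 89.2%, and a window in Vps28 near Tonsl from 7.58% to 19.4%. With at most 10 reads per position 0 of the 50 were called, beside 0.92% of all windows.

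Beyond the lists, the promoters printed after the opening held some of the largest changes. Of the 17 CpGs printed for Arhgef18, 7 were measured as 11 positions, which went from a mean of 3.33% in LT-HSC through 23.7% in ST-HSC to 40.8% in MPP. All 11 were higher in MPP, on 89 to 156 reads per position in LT-HSC and 65 to 87 in MPP. Over the whole start region of 22 positions the level went from 5.09% to 48.0%, a rise of 42.9 points. In Control that region went from 6.38% to 40.1%, each library over the positions it held.

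Lhcgr encodes the receptor for luteinizing hormone. Its printed bases held 13 measured positions, which went from 8.65% through 19.2% to 43.1%, and 11 of 13 were higher. The start region rose from 9.09% to 47.7%. Control stood at 35.3% and 39.9%, each library over the positions it held, so KI LT-HSC was the low one of the 4. At the 11 positions of the start window held by all 4 libraries, Control went from 40.1% to 56.1% and KI from 4.34% to 49.8%. Tubb4a, a beta-tubulin of neurons, was at 42.8%, 84.2% and 61.4% in the printed bases, with ST-HSC above MPP.

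Sp8, a zinc-finger factor of limb and brain development, fell from 18.7% to 2.41% over 17 positions, with ST-HSC at 2.50% and Control at 2.42% and 0.523%. Here the KI LT-HSC library alone was high. With at least 20 reads per position, 7 positions were left and the difference was −4.65 points, no longer called. Igf2r, the imprinted receptor that clears IGF2, fell from 46.4% through 42.6% to 31.0% at a start that the Airn transcript overlaps, and all 12 positions were lower in MPP. The fall at Igf2r was not called with at most 10 reads per position (−14.2 points, adjusted Fisher p = 0.309).

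Other named starts that rose were Noxa1, an activator of NADPH oxidase, from 20.5% to 59.1%, and Prm1, a sperm protamine, from 41.5% to 74.5%. Gm13205, a predicted gene, rose from 59.5% to 92.5%. Medag, an adipocyte gene, rose from 7.98% to 38.1%, and Rfx8, of the RFX factor family, from 32.1% to 60.1%. In Control, each library over the positions it held, Prm1 stood at 71.6% and 62.5%, above KI LT-HSC. At Rfx8 Control stood at 6.53% and 9.51%, below both KI libraries. Falls were smaller, with Krt27, a hair keratin, from 86.2% to 70.2%, Cspg4, a pericyte proteoglycan, from 37.7% to 22.2%, and Fbln7, an adhesion protein, from 19.2% to 6.04%. None of these 3 falls was called with at most 10 reads per position. The Fbln7 fall was also not called with at least 20 reads (−6.31 points), with summed reads (−7.58) or on the reverse strand (−6.31).

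Called promoters were poorer in CpGs than the measured starts. The median promoter held 13 CpGs among those called higher and 9.5 among those called lower, against 23 over all 10821 measured. The letters AGATAA, the GATA motif, searched on both strands, were in 13.4% of the 142 higher promoters, 4.73% of measured and 11.2% of all 31396 promoters. The RUNX letters TGTGGT were in 11.3%, 10.6% and 16.7% in the same order, and the PU.1 letters GAGGAA in 25.4%, 24.9% and 28.2%. These are descriptions of letters and no sites, and the part of CpG content in them was not tested.

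Away from Hoxa and the starts, the largest rises lay inside genes. Kcnk12, a potassium channel subunit, rose from 8.60% in LT-HSC through 32.7% in ST-HSC to 68.0% in MPP, and 13 of 13 positions were higher. The fraction of reads rose by 58.2 points (95% Newcombe interval 53.0 to 62.8). Fgf12, an intracellular growth factor homologue, went from 14.4% through 40.3% to 65.7%, and Gdf3, a ligand of the TGF-beta family, from 11.3% through 21.6% to 59.4%. Snx20, a sorting nexin, went from 22.5% through 39.8% to 73.1% over 33 positions. In each of these ST-HSC lay between LT-HSC and MPP.

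Abr rose at its start from 42.0% through 77.4% to 91.9%. Runx3, a transcription factor of T cells, rose inside the gene from 44.4% through 82.5% to 87.2% over 20 positions, and Control went from 28.8% to 86.7%. Kcnn4, a calcium-activated potassium channel of blood cells, rose from 39.99% to 83.9%, and Plcb2, a blood phospholipase C, from 46.2% to 94.2%. Tlr9, the receptor for CpG DNA in endosomes, rose from 1.45% through 5.68% to 47.9% over 9 positions. At Tlr9 ST-HSC lay near LT-HSC, and at Plcb2, with 96.4% in ST-HSC, it lay near MPP.

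The only runs of 3 called windows in a row were in Mn1 and Nfix, both gene bodies. Mn1, a transcriptional coregulator of myeloid leukaemia, stood at 47.0% in LT-HSC and 77.1% in MPP over 115 positions of chr5:111418001-111421000. Its 3 windows rose by 15.4 to 35.8 points. Nfix, a nuclear factor that supports stem cell survival, stood at 44.5% and 71.2% over 44 positions of chr8:84784001-84787000, and its windows rose by 22.1 to 32.1 points. In Control the levels went from 34.3% to 60.7% at Mn1 and from 40.1% to 62.0% at Nfix.

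The largest falls were fewer and smaller. Tmc8, a transmembrane channel-like protein, fell from 72.6% through 38.1% to 27.7% over 10 positions. Rab11fip4, an effector of Rab11 in vesicle traffic, fell from 87.5% through 69.0% to 47.1%, and Control fell further, from 87.7% to 33.4%. Kcnh3, a voltage-gated potassium channel, fell from 65.4% through 58.9% to 26.1%, and a window nearest Tspoap1 from 69.1% through 40.8% to 39.0%. The window nearest Taf1b, a subunit of the RNA polymerase I factor SL1, fell from 74.8% to 45.4% with ST-HSC at 74.4%. It was −10 points with at least 20 reads per position, no longer called (adjusted Fisher p = 0.0992). The window in 2900026A02Rik fell from 74.3% to 47.1%, Peak1, a pseudokinase, from 79.9% to 53.4%, and Hpn, a liver serine protease, from 97.3% to 71.4%. Nrxn2, a neurexin, fell from 57.4% to 32.6% and Cracd, an actin regulator, from 87.3% to 62.2%. Neither of the last was called with at most 10 reads per position (adjusted Fisher p = 0.0726 and 0.0126), and Cracd was −0.999 points on its reverse strand.

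**Figure D3:**
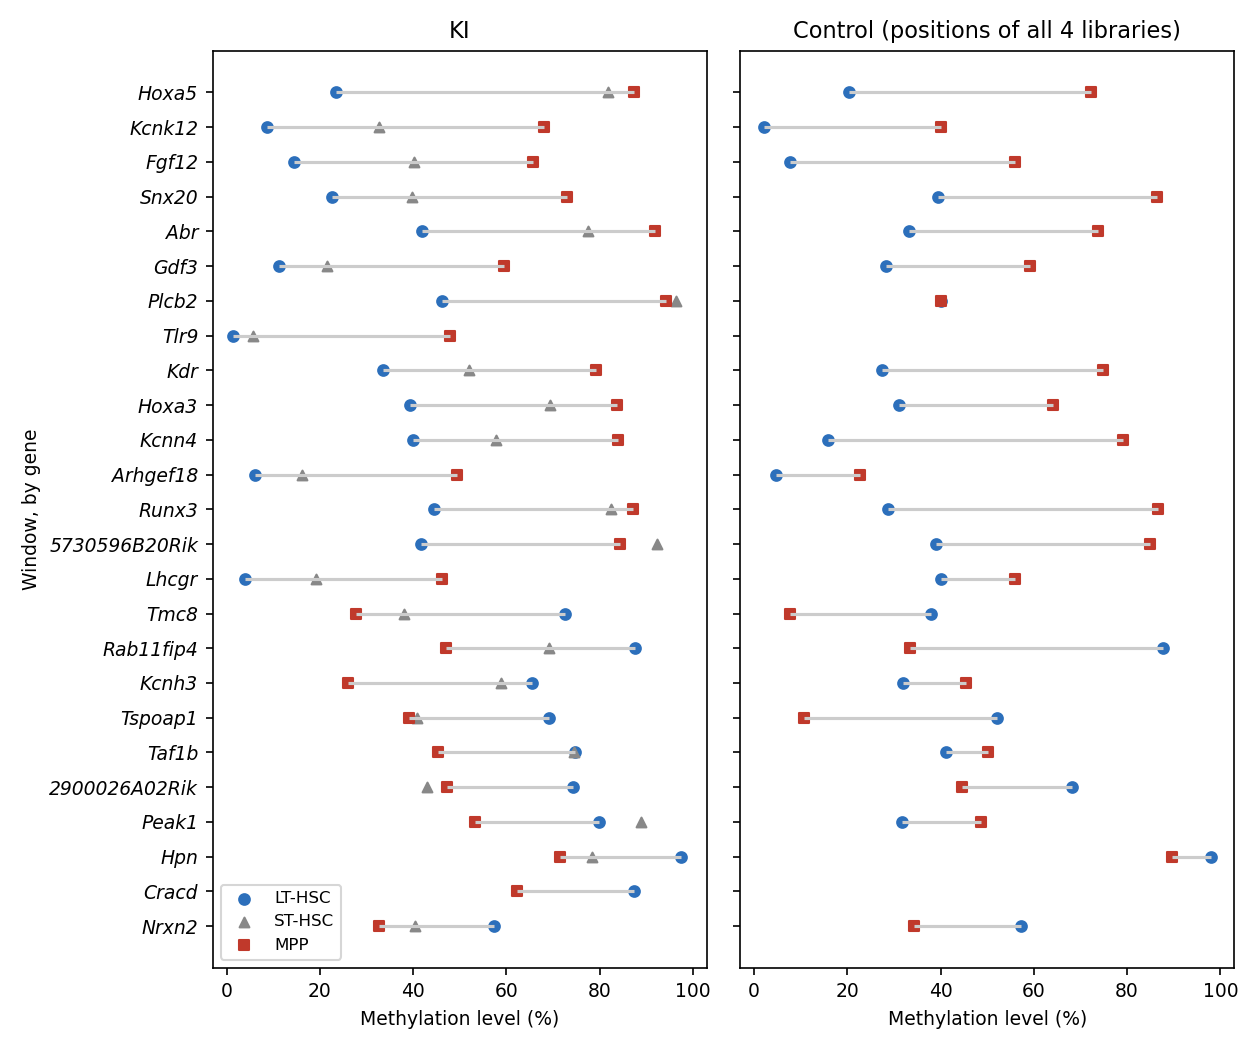
Methylation level (x axis, percent) of the 15 windows with the largest rise and the 10 with the largest fall (y axis, by gene), in KI LT-HSC, ST-HSC and MPP (left) and in Control LT-HSC and MPP at the positions of all 4 libraries (right). In the KI panel the Hoxa5 line runs from 23.5 to 87.3%, and Control MPP lies above Control LT-HSC at each measured rise except Plcb2, where both points coincide.

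Called windows lay away from gene starts. At gene starts 1.46% of 13057 windows were higher and 0.276% lower, in gene bodies 5.09% of 13024 and 1.18%, and outside genes 5.48% of 4544 and 1.89%. Chromosome 18 was not analysed here for place. The share called higher was 1.32% under 500 bases from a start and 6.22% at 2000 to 10000 bases. It was lower where windows held more positions, from 5.81% of windows with 5 to 7 positions to 0.659% of those with 30 or more. The ST-HSC level, used only to class windows, separated them further. At 20 to 80% in ST-HSC, 23.6% of 2503 windows were higher and 5.39% lower. At under 20% in ST-HSC the shares were 1.24% and 0.156%, and at over 80% they were 2.84% and 1.13%. Within the middle class, 22.3% of windows at starts, 26.3% in bodies and 19% outside genes were higher, shares less far apart than over all windows.

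**Figure D4:**
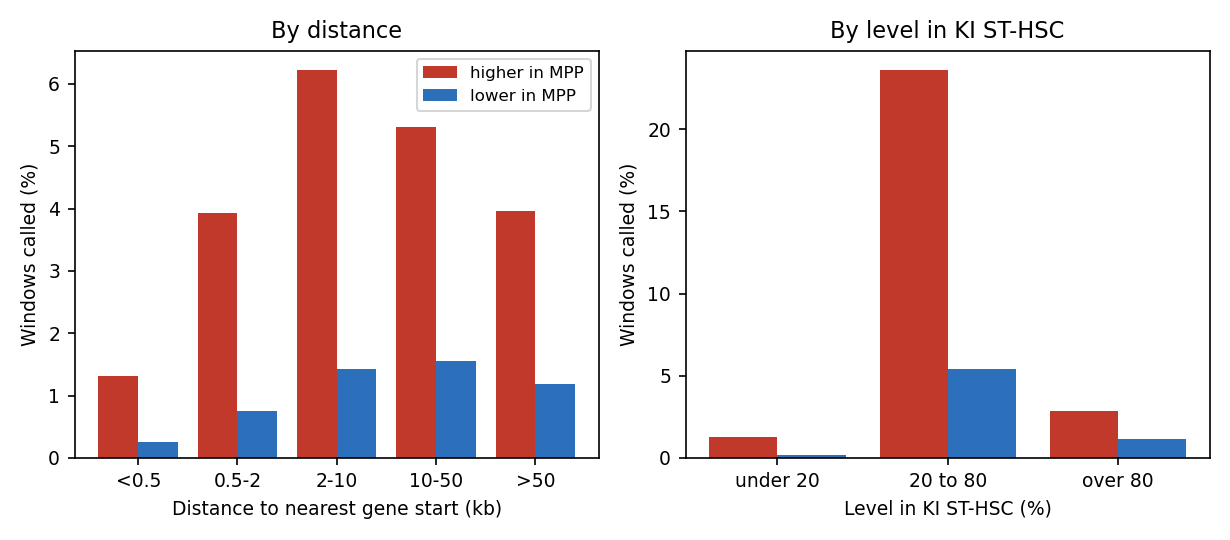
Share of windows called higher (red) or lower (blue) in MPP (y axes, percent) by distance to the nearest gene start (left, kb, without chromosome 18) and by level in KI ST-HSC (right, percent). The bar for 20 to 80% in ST-HSC reaches 23.6% higher, against 1.24% under 20% and 2.84% over 80%.

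Position classes moved in both directions. Of positions under 20% in LT-HSC, 35983 (6.51%) were at 20 to 80% in MPP and 448 over 80%. Of those at 20 to 80%, 11431 (19.3%) were over 80% and 16684 (28.2%) under 20%. Of positions over 80%, 8422 (5.76%) were at 20 to 80% and 155 under 20%. These classes were taken from the LT-HSC library itself.

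The ST-HSC library, which was not in the test, mostly lay between the others. Of 1058 windows called higher with an ST-HSC level, 791 lay between LT-HSC and MPP, 201 beyond MPP and 66 below LT-HSC. In the order of differentiation their medians were 31.0%, 49.4% and 56.3%. Of 256 windows called lower, 182 lay between, with medians of 82.0%, 69.2% and 61.9%. Of 28517 windows not called, 10876 lay between. By these medians ST-HSC lay nearer MPP than LT-HSC. Called windows were chosen for a gap between LT-HSC and MPP, which leaves more room for a library between them. The timing of the changes was not tested.

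Control libraries were compared at the same positions, since they share no library with the KI comparison. Of 856 windows called higher in KI and measured in Control, 298 (34.8%) were called higher in Control too and 73 (8.53%) lower. Their median difference was 5.97 points in Control and 16.4 in KI. These windows were chosen for a KI difference of at least 10 points, so a larger KI median is built into the choice. Over all 25977 windows measured in the 4 libraries, Control was called higher at 4.18% and lower at 2.88%, with a median of −0.0459 points. Of 187 windows called lower in KI, 56 (29.9%) were lower in Control and 22 (11.8%) higher. Control's own call, over all 33756 windows that its libraries share, was higher at 4.73% and lower at 3.6%, together 8.33%. The difference between both genotypes was tested on log odds of reads, with an adjusted p below 0.01 and 25 points or more. KI was above Control at 233 windows and below at 131, among them 141 of the 856 called higher and 23 of the 187 called lower. The 856 and 187 windows were chosen by the KI difference, which is part of that test. Each genotype and sort was 1 library in that test too.

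Imprinted genes, where 1 parental copy is methylated, moved in both directions. Of 18 measured starts, 2 were higher and 1 lower, with a median difference of 1.25 points. Over all measured starts, 1.31% were higher and 0.24% lower. Nnat, expressed from the paternal copy, rose from 27.6% through 41.8% to 45.2%, and Zrsr1, a paternally expressed splicing gene, rose from 25.8% through 46.8% to 42.5%. Neither was called with at most 10 reads per position (adjusted Fisher p = 0.133 and 0.0524), and Zrsr1 was 1.18 points higher on the forward strand, not called. A window at the Zrsr1 start with 6 positions fell instead, from 53.6% to 33.1%. In windows, 6 of 62 were higher (9.68%) and 3 lower (4.84%), beside 3.63% and 0.907% over all windows. The window of Peg10 and Sgce rose from 28.9% to 57.4%, and Kcnq1ot1, the antisense transcript of its domain, from 6.38% through 31.5% to 35.4%. In Gnas a window of 31 positions rose from 29.8% to 53.3% and another of 8 positions fell from 53.6% to 34.1%.

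Other lists moved little at their starts, where over all measured starts 1.31% were called higher and 0.24% lower. Developmental transcription factors outside Hox had 0 of 80 starts called, with a median of 1.67 points, and 16 of 559 windows higher (2.86%) and 5 lower (0.894%), near the 3.63% and 0.907% over all windows. Among the called, Gbx2, a hindbrain factor, rose from 45.7% to 77.6%, and Hand1, a heart and trophoblast factor, from 3.85% to 28.8%. Nkx2-2, a neural tube factor, fell from 51.1% to 29.1% in a window of 6 positions. Tumour suppressor and WNT inhibitor genes had 0 of 21 starts called, with a median of 1.77 points. Of their 101 windows, 2 were higher (1.98%) and 1 lower (0.990%). Cdh1, which encodes E-cadherin, fell from 100% to 79.2% there. Germline genes, which are methylated in most body cells, had 0 of 16 starts called, at medians of 95.4% and 95.7%. Of their 28 windows, 2 were higher (7.14%) and 0 lower, with Meioc, a meiosis gene, from 47.4% to 81.4%.

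**Figure D5:**
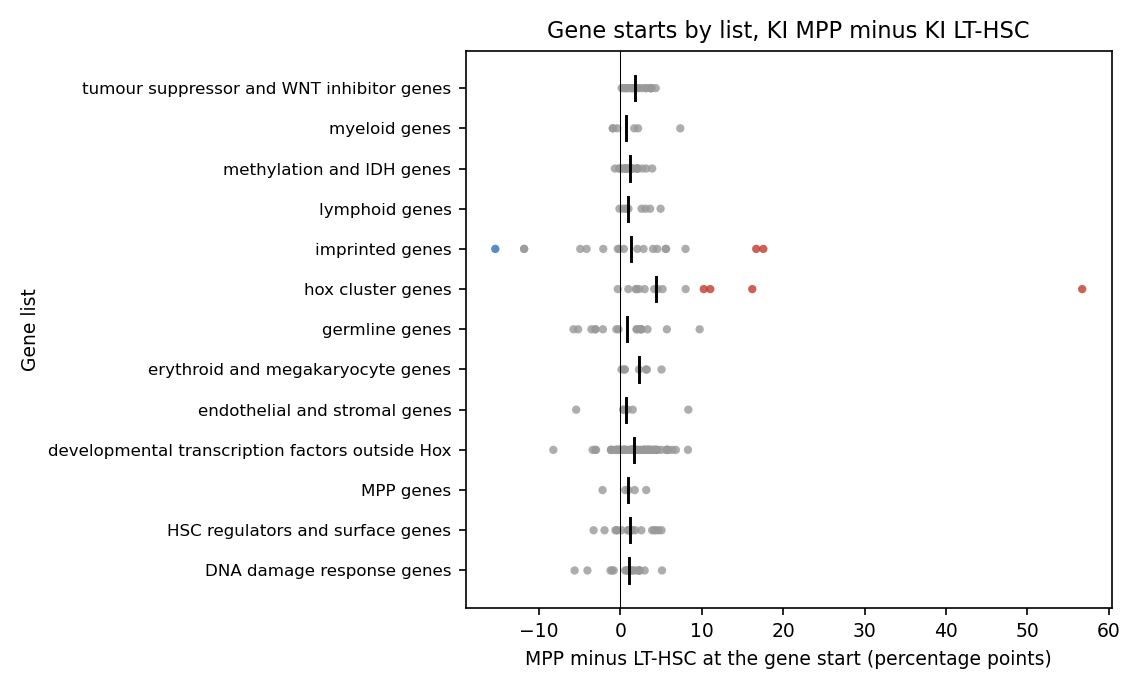
KI MPP minus KI LT-HSC at measured gene starts (x axis, percentage points) by gene list (y axis), each point a gene, the bar the list's median, red and blue points called higher and lower. Hox cluster genes spread to 56.7 points at Hoxa5 with 4 called, and imprinted genes to both sides, while points of the other lists lie within 10 points of 0.

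Of 123 miRNA hairpins in measured windows, 2 lay in or overlapped called ones, a smaller share than the 4.54% of all windows called.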

How the data were processed

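eRRBS libraries of KI LT-HSC and KI MPP were compared, with KI ST-HSC and both Control sorts used only beside them. Per the labels' protocols, 10 ng of DNA was used, gels were cut at 150 to 400 bp, and 5 libraries shared a lane with 30% PhiX. Bismark 0.10.0, SAMtools 1.0, methylKit 0.9.1 and the build mm10 come per the submitters' processing notes. The sources used here give neither the conversion rate nor any removal of read copies. Coverage as deposited counts the reads of a position, with at least 10 in each library, and the deposited levels are percent of reads with C and T, per the file headers. Multiplying coverage by percent C gave whole methylated reads at 100% of positions, within 0.01% of coverage. Autosomal reads summed to 53341376 in KI LT-HSC (median 45 per position) and 51407458 in KI MPP (39).

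Positions were matched by chromosome, base and strand. Reads were tested with two-sided Fisher exact tests and Benjamini-Hochberg adjustment over all positions, windows or gene starts, in Python 3.11.15 with scipy 1.17.1, checked on simulated data. Intervals are 95% Wilson and Newcombe on reads. Gene starts and sequences came from RefSeq tables of GRCm38.p6, in which all 10821 measured starts had a promoter sequence. A gene's start was the one with most positions. Control levels at gene starts are means over the positions that each Control library held, so the Control sorts are not matched there. Control levels of windows use positions held by all 4 libraries. All 124953 measured positions inside promoter sequences lay at a CpG of their strand.

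Named were the 15 largest rises and 10 largest falls of called windows with at least 8 positions, the 10 and 5 of gene starts, up to 5 called members per list, the sorting markers, the Idh, Tet and Dnmt genes, Atm and Meis1 where measured, and runs of at least 3 windows. The members, rules and lists were chosen with earlier results of these data known. Alternatives were coverage limits, strands, read caps, thresholds, window placement and, chosen after seeing the data, centring on the median difference, strand tests within a library and windows in list genes.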

Additional observations from a re-analysis of the deposited data

Results flagged for a closer look

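At 6 named windows the KI difference between MPP and LT-HSC departed from the Control difference by at least 25 points in a test of the difference itself, on log odds of reads with Benjamini-Hochberg adjustment over 25977 windows. Each of the 4 libraries in it was a single pool, so the test covers counting error only. The named windows were chosen for large KI differences, which are part of the test, so a departure from Control is favoured by the choice. Peak1 fell from 77.3% to 49.5% in KI over 11 positions and rose from 31.7% to 48.7% in Control, a difference of −44.8 points. Kcnh3 went from 69.98% to 21.4% in KI and from 31.9% to 45.4% in Control over 5 positions, −62.0 points. The window nearest Taf1b went from 74.8% to 45.4% in KI and from 41.3% to 50.2% in Control, −38.4 points. In these 3 windows the MPP levels of the genotypes lay closer together than the LT-HSC levels, and the KI LT-HSC level was the highest of the 4.

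Plcb2 rose from 50% to 92.3% in KI and stood at 40% in both Control sorts over 6 positions, a difference of 42.3 points. Lhcgr rose from 4.34% to 49.8% in KI and from 40.1% to 56.1% in Control, 29.5 points. Arhgef18 rose from 6.18% to 49.4% in KI and from 4.69% to 22.7% in Control, 25.2 points. Over the larger Arhgef18 start region the libraries were closer, from 5.09% to 48.0% in KI and from 6.38% to 40.1% in Control. The Control sorts were not matched by position in that region.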

How the results depend on the processing

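The difference in mean level was 4.92 points weighted by reads and 1.39 points over positions covered in all 6 libraries. Positions called higher and lower numbered 3560 and 1187 on the forward strand, 3712 and 1312 on the reverse strand, 3684 and 1291 at 40 points, 139 and 13 on both strands of a CpG, and 0 and 0 with at most 10 or 5 reads, where single positions hold too few reads to pass. Windows called higher and lower numbered 518 and 141 on the forward strand, 562 and 117 on the reverse strand, 266 and 24 with at most 10 reads, 62 and 2 with at most 5, 259 and 44 at 25 points, 2337 and 681 at 5 points, and 341 and 41 with at least 10 positions. With at least 20 reads, 168 windows and 13 gene starts were lower. Gene starts numbered 26 and 1 with at most 10 reads, 7 and 0 with at most 5, 22 and 2 at 25 points, 475 and 69 at 5 points, and 68 and 4 with at least 10 positions. Fewer positions or reads are tested under the strand, read and position settings, and the cause of other changes was not tested. Centred on the median difference, which was 1.04 points over windows, 1021 windows were higher and 338 lower. No called named window or gene start changed direction under a setting run on it. Starts that were not called changed sign at Idh1 and Tet1 with summed reads (−0.316 and −0.124 points), Tet1 on the forward strand (−0.479), and Idh2 and Meis1 on the reverse strand (0.588 and −0.129). With at most 10 reads, 23 of 25 called named windows and 12 of 20 called named starts were still called. No paired analysis was possible because each group had 1 library.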
